A study of Mus musculus with 48 samples.

Results

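The middle dose of dichloroacetic acid (DCA) in frozen liver was described from 6 samples of animals given 313 mg/kg-d (animals 73 to 78) and 6 samples of vehicle controls given 0 mg/kg-d (animals 3 to 8), which are 12 of the 48 samples of the series. Members were chosen by the dose and preservation in the sample records and by no measured value. All animals were 4-week-old male B6C3F1 mice, a hybrid of the C57BL/6 and C3H strains, and drank DCA at 2.0 g/L or the vehicle at 0 g/L for 6 days. RNA came from frozen (FROZ) liver of mixed lobes, 1 sample from each animal. Gene expression was measured by TempO-Seq, an assay that joins 2 neighbouring detector oligos once both are bound to a target RNA and counts the PCR-amplified product by sequencing. The 6 FROZ samples at each of 198 mg/kg-d (1.0 g/L) and 427 mg/kg-d (3.5 g/L) entered the same model and are used below only to place the middle dose.

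DCA is a small chlorinated acid that inhibits the pyruvate dehydrogenase kinases, so that pyruvate dehydrogenase stays active and pyruvate enters the mitochondrial TCA cycle. The liver clears it through Gstz1, which is also a step of tyrosine breakdown. In rodent liver, high doses of DCA also act like a peroxisome proliferator. Such compounds work through the nuclear receptor PPAR alpha, which binds DNA together with RXR and switches on genes for the uptake, activation and oxidation of fatty acids in peroxisomes, mitochondria and the endoplasmic reticulum. Cyp4a14, Acot3, Acot1 and Ehhadh are among the best known of these genes.

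Values are given as CPM, reads of a gene per 1000000 reads on the genes listed in the table. Fold changes are differences of mean log2(CPM + 1), 313 minus 0 mg/kg-d, which understate the change of genes near 0. Reads on listed genes numbered 7.95 to 9.84 M (1 M is 1000000) in the controls and 6.69 to 9.41 M at 313 mg/kg-d. The mean was 1.26 M lower at 313 mg/kg-d (two-sided exact permutation test, p = 0.0303, n = 6 against 6), and 1 read was worth 0.102 to 0.1495 CPM. The 10 genes with the most reads took 14.4 ± 0.537% (SD, n = 6) of the reads in the controls and 13.02 ± 1.25% at 313 mg/kg-d. Between samples of a dose Pearson's r over the 11275 genes lay between 0.978 and 0.990, and no sample was a copy of another. Control animals 5 and 6 stood apart in skeletal muscle genes. Over 9 of these, chosen after their values were seen (Acta1, Mylpf, Tnnc2, Tnni2, Tpm2, Myh8, Ryr1, Rpl3l and Phkg1), the summed level was 6061 CPM in animal 5, 344.5 CPM in animal 6 and 12.6 to 27.3 CPM in the other 22 FROZ samples. The sample records do not say how animals were caged or in what order they were killed, so p-values measure the spread between these animals.

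At 313 mg/kg-d, 161 genes increased and 100 decreased by more than 2-fold at a false discovery rate (FDR) under 0.05 by limma. These 261 differentially expressed genes (DEGs) were 1.43% and 0.887% of the 11275 genes tested. An FDR under 0.05 at any fold change was reached by 2317 genes that were higher (20.5%) and 693 that were lower (6.15%), and these 2 shares are the background for the function lists below, where "rose" and "fell" mean an FDR under 0.05. Over the whole table the log2 fold change had a median of 0.11, which was within 0.01 of 0 once the libraries were scaled by the median ratio of their genes to a common reference. With that scaling 121 genes increased and 134 decreased by more than 2-fold, in place of 161 and 100, and 1158 (10.3%) and 1223 (10.8%) genes passed the FDR alone. The counts with this scaling are therefore set beside those of each list. Of the 261 DEGs, 220 were DEGs in the same direction in both scalings, and 241 were neither Acot nor Cyp genes. Without controls 5 and 6, 172 genes increased and 94 decreased by more than 2-fold, and 227 of the 261 DEGs remained. Acta1, Mylpf and Tnnc2 were DEGs only with them, since their treated animals differed little from the other 4 controls. Acta1 fell from a control median of 8.72 to 5.05 CPM at 313 mg/kg-d, and its log2 fold change was -2.32 with controls 5 and 6 and -0.46 (FDR 0.177) without them. In bulk liver, fewer cells of a type and less RNA per cell cannot be told apart.

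The 6 treated animals all lay above the 6 controls for 120 of the 161 increased DEGs and all below them for 65 of the 100 decreased DEGs. Over all genes these shares were 9.14% and 2.39%. The plot of genes by animal shows the 15 largest changes in each direction among the DEGs whose groups do not overlap, other than Acot and Cyp genes.

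**Figure D1:**
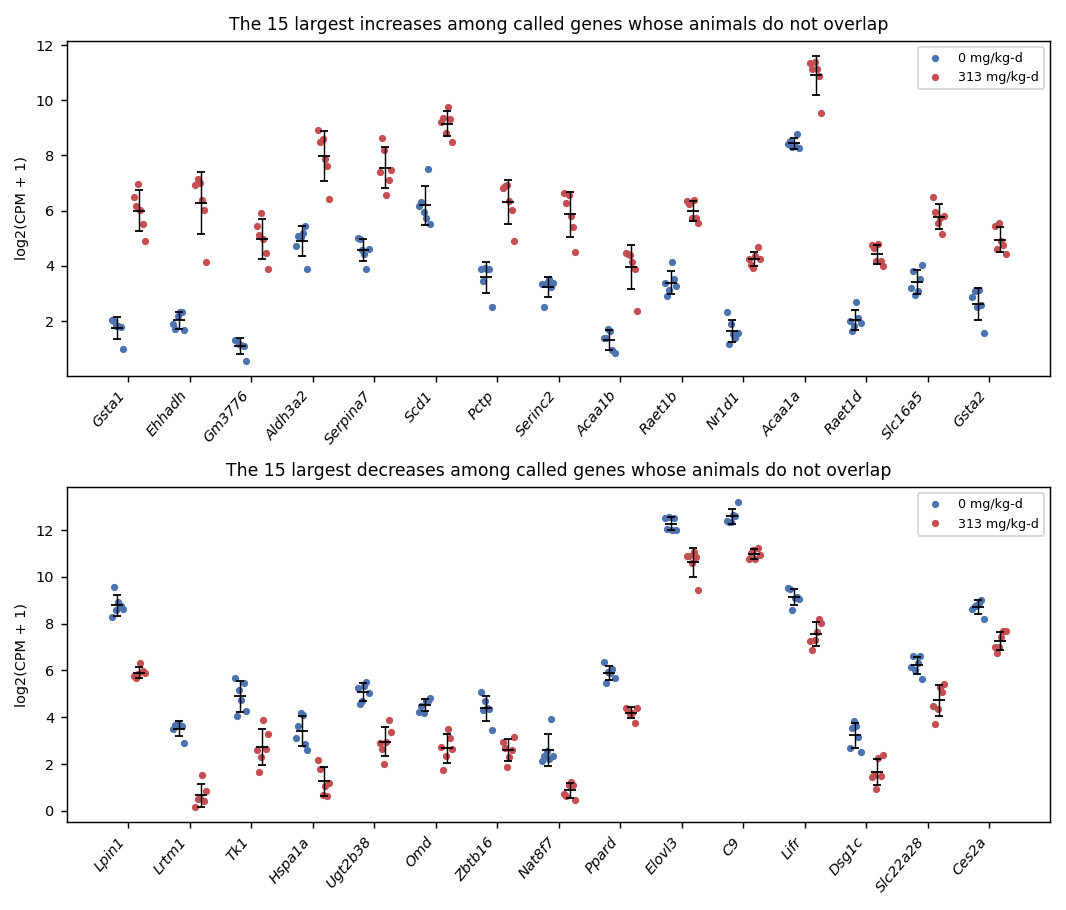
Level of each gene on the log2(CPM + 1) scale in the 6 controls (blue points) and the 6 animals at 313 mg/kg-d (red points), with the mean and SD of each group in black. The groups do not overlap for any of the 30 genes, and the red points of Ehhadh, Acaa1a and Acaa1b each include 1 animal well below the other 5.

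**Figure D2:**
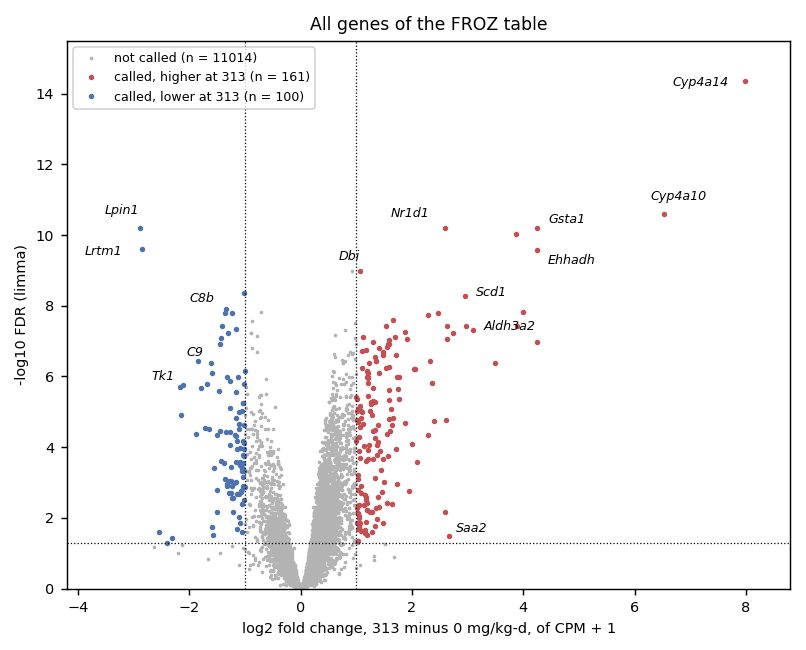
Log2 fold change of CPM + 1 (313 minus 0 mg/kg-d) of each of the 11275 genes against -log10 of its FDR, with the FDR of 0.05 and the 2-fold change as dotted lines. The 161 increased DEGs reach a log2 fold change of 7.98 for Cyp4a14, and the 100 decreased DEGs reach -2.88 for Lpin1.

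The 4 marker genes of the dose were among the most changed. Cyp4a14 lay between 0.218 and 1.89 CPM in the controls (median 0.475) and between 123 and 727 CPM at 313 mg/kg-d (median 504). With SE for standard error, this omega-hydroxylase of fatty acids (chromosome 4, 115486200 to 115496142) had a change of 7.98 on the log2 scale (SE 0.35, FDR 4.35e-15), and its lowest treated animal was far above its highest control. Acot1 lay between 7.2 and 16.4 CPM in the controls (median 10.7) and between 31.9 and 425 CPM at 313 mg/kg-d (median 213), and Acot3 lay between 0.458 and 1.91 CPM in the controls (median 1.01) and between 8.33 and 149.6 CPM at 313 mg/kg-d (median 42.9). Both are acyl-CoA thioesterases, and their log2 fold changes were 3.89 (FDR 3.73e-08) and 4.25 (FDR 1.08e-07) with no overlap between the groups. Ehhadh lay between 2.21 and 4.06 CPM in the controls (median 3.17) and between 16.8 and 141 CPM at 313 mg/kg-d (median 101). Ehhadh (chromosome 16, 21761287 to 21787807), the bifunctional enzyme of peroxisomal beta-oxidation, had a change of 4.25 on the log2 scale (SE 0.31, FDR 2.64e-10). Stretches of 50 bases that also occur in another gene, most of them in Acot2, made up 19.2% of Acot1, so how reads were split between them is uncertain.

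PPAR alpha and RXR bind 2 AGGTCA-type repeats with 1 base between them, an arrangement named DR1. The 250 bases before the transcription start, from the RefSeq promoter table for GRCm38.p6, were searched on both strands for AGGNCANAGGNCA, which is a DR1, and for AGGTCA, a single repeat that a DR1 may contain. A promoter was found for 8975 of the 11275 genes, 121 of the 161 increased DEGs and 75 of the 100 decreased DEGs. The DR1 letters stood in 29 of the 8975 promoters (0.323%), in 1 of the 121 (0.826%), which was that of Fabp1, and in 0 of the 75. The single repeat stood in 13.2% of all promoters, in 20 of the 121 (16.5%) and in 17 of the 75 (22.7%). Below are the Fabp1 promoter (chr6:71199629-71199878, plus strand), shown as the one promoter of a DEG with the DR1, and those of Acadm (chr3:153944644-153944893, minus strand) and Plin2 (chr4:86670060-86670309, minus strand), chosen after their values were seen as increased fatty acid genes with the single repeat. Each is printed 5′ to 3′ and ends at the base before the start. Capitals mark the DR1 in Fabp1 and the single repeat in Acadm and Plin2. A further single repeat near the end of the Fabp1 promoter is left in lower case. All 3 marked matches lie on the strand opposite to the gene, so the capitals show the reverse complement of the motif.
Fabp1: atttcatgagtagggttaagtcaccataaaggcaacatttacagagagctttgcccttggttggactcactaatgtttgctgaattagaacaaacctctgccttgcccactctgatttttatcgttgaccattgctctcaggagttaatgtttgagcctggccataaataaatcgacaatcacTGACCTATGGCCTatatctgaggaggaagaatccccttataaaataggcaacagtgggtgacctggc
Acadm: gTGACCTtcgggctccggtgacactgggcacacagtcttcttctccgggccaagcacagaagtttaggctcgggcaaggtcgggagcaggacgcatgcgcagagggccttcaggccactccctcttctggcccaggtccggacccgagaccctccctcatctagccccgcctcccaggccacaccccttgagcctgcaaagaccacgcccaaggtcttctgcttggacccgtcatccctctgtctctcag
Plin2: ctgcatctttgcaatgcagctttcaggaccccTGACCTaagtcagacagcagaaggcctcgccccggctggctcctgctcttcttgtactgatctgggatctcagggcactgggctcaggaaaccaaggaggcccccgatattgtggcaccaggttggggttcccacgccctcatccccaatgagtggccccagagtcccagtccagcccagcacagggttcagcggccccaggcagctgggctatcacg
In the Fabp1 promoter the DR1 match begins 67 bases before the start. A match describes the letters and says nothing of binding in these livers, and most of a gene's regulatory sequence lies outside this window.

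Genes of peroxisomal beta-oxidation, which shortens long and branched fatty acids, had the highest median log2 fold change of the 41 function lists in both scalings. Of this list 17 of the 27 measured members rose and 0 fell (15 and 2 with median-ratio scaling), with a median log2 fold change of 0.71. Acaa1a lay between 305 and 439.7 CPM in the controls (median 333) and between 735 and 2707 CPM at 313 mg/kg-d (median 2247), and Acaa1b lay between 0.777 and 2.29 CPM in the controls (median 1.63) and between 4.18 and 21.1 CPM at 313 mg/kg-d (median 18.4). These 2 thiolases cut the last step of the cycle, and their log2 fold changes were 2.47 (FDR 1.64e-08) and 2.63 (FDR 3.73e-08), although 30.5% of the 50-base windows of Acaa1b occur in other genes, most often Acaa1a. Crat, which moves acetyl groups to carnitine, went from a median of 4.56 to 22.6 CPM (log2 fold change 2.04, FDR 6.3e-07). The groups did not overlap for 13 of the 27 genes.

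Mitochondrial beta-oxidation and the carnitine shuttle, which feed fatty acids into the mitochondrion and break them down, came next by median. There 17 of the 20 measured members rose and 1 fell (15 and 1 with median-ratio scaling), and the median log2 fold change was 0.67. Acadm lay between 477 and 568 CPM in the controls (median 533) and between 823 and 1562 CPM at 313 mg/kg-d (median 1235). Acadm, the medium-chain acyl-CoA dehydrogenase, had a change of 1.18 on the log2 scale (SE 0.13, FDR 1.77e-07). Eci1 and Decr1, the auxiliary enzymes for unsaturated fatty acids, had log2 fold changes of 1.53 (FDR 3.78e-08) and 1.12 (FDR 7.68e-08), and Slc22a5, the plasma membrane carnitine carrier, went from 0.713 to 2.7 CPM (log2 fold change 1.21, FDR 0.000223). For all 4 the treated animals lay above every control. Ketone body genes showed a smaller shift, in which 5 of the 7 measured members rose and 0 fell (4 and 2 with median-ratio scaling). Acat1, a mitochondrial thiolase, went from 259 to 361 CPM (log2 fold change 0.57, FDR 0.00062) and the ketone and lactate carrier Slc16a1 from 231 to 375 CPM (log2 fold change 0.76, FDR 2.36e-05).

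Fatty acid uptake and storage changed in the same direction. Among uptake, binding and activation genes 10 of the 21 measured members rose and 1 fell (7 and 2 with median-ratio scaling), and among lipid droplet and lipolysis genes 9 of the 17 measured members rose and 0 fell (6 and 0 with median-ratio scaling). Fabp1 lay between 3089 and 6849.7 CPM in the controls (median 6128) and between 10925 and 17222 CPM at 313 mg/kg-d (median 12371). Fabp1, the liver fatty acid binding protein, had a change of 1.21 on the log2 scale (SE 0.16, FDR 3.58e-06). Cd36, a fatty acid translocase, went from 8.42 to 38.9 CPM (log2 fold change 1.71, FDR 0.000114) with 5 of 6 treated animals above all controls, Dbi, the acyl-CoA binding protein, from 612 to 1340.3 CPM (log2 fold change 1.07, FDR 1.04e-09) and the acyl-CoA synthetase Acsl5 from 172 to 292 CPM (log2 fold change 0.79, FDR 0.000301). The highest control for Cd36 was animal 5, at 4.36 on the log2(CPM + 1) scale, with the next control at 3.31. Plin2 lay between 672 and 780.1 CPM in the controls (median 741) and between 1186 and 3086 CPM at 313 mg/kg-d (median 2517). Plin2, the main coat protein of hepatic lipid droplets, had a change of 1.53 on the log2 scale (SE 0.18, FDR 5.61e-07). Hsd17b11, another droplet protein, went from 540.1 to 1719.9 CPM (log2 fold change 1.55, FDR 1.43e-07), the monoacylglycerol lipase Mgll from 18.7 to 52.1 CPM (log2 fold change 1.35, FDR 3.55e-07) and Fitm1, which helps droplets form, from 0.865 to 6.29 CPM (log2 fold change 1.66, FDR 1.53e-05).

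Among other PPAR alpha targets 10 of the 18 measured members rose and 0 fell (6 and 0 with median-ratio scaling). Aldh3a2 lay between 13.8 and 42.7 CPM in the controls (median 32.3) and between 85.3 and 487 CPM at 313 mg/kg-d (median 297). Aldh3a2 (chromosome 11, 61223417 to 61267464), the fatty aldehyde dehydrogenase, had a change of 3.10 on the log2 scale (SE 0.31, FDR 4.69e-08). Retsat, a retinol saturase, went from 149.6 to 791 CPM (log2 fold change 2.29, FDR 1.85e-08), Ucp2, a carrier of the inner mitochondrial membrane, from 13.4 to 46.4 CPM (log2 fold change 1.59, FDR 4.48e-06), and Rab30, a small GTPase, from 1.5 to 6.54 CPM (log2 fold change 1.91, FDR 8.71e-08), each without overlap. Aldh3a2 and Retsat also led the aldehyde and retinoid oxidoreductases, of which 16 of the 30 measured members rose and 5 fell (10 and 5 with median-ratio scaling). The retinol dehydrogenase Rdh16 went from 1.61 to 5.56 CPM (log2 fold change 1.48, FDR 2.48e-07). Without animal 4 or 75, 3 members fell in place of 5.

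Most lipogenic transcripts that changed were higher, as for oxidation, and genes of triglyceride synthesis changed in both directions. Of the lipogenic list 14 of the 24 measured members rose and 2 fell (12 and 2 with median-ratio scaling), and of the elongases and desaturases 8 of the 16 measured members rose and 1 fell (6 and 3 with median-ratio scaling). Scd1, Elovl5 and Elovl6 are on both lists and count among the members that rose in each. Scd1 lay between 44.7 and 182 CPM in the controls (median 66.03) and between 360.2 and 862 CPM at 313 mg/kg-d (median 613). Scd1 (chromosome 19, 44394455 to 44407879), the stearoyl-CoA desaturase, had a change of 2.96 on the log2 scale (SE 0.25, FDR 5.13e-09). Me1, which supplies NADPH, went from 340.2 to 1266 CPM (log2 fold change 1.71, FDR 2.52e-07), and the elongases Elovl5 and Elovl6 from 127 to 321 CPM (log2 fold change 1.41, FDR 7.88e-07) and from 44.1 to 111 CPM (log2 fold change 1.33, FDR 2.79e-07). Lpin1 (chromosome 12, 16535669 to 16610966), a phosphatidate phosphatase of triglyceride synthesis, moved the other way. Lpin1 lay between 308 and 763 CPM in the controls (median 411) and between 50.1 and 78.8 CPM at 313 mg/kg-d (median 56.9), which is a change of -2.88 on the log2 scale (SE 0.20, FDR 6.47e-11), and the groups were far apart. Dgat2, also of triglyceride synthesis, went from 427 to 291 CPM (log2 fold change -0.61, FDR 0.00128). Its counterpart Dgat1 went from 63.8 to 96.0 CPM (log2 fold change 0.54, FDR 0.00128). Gpam, Agpat2, Agpat3 and Lpin2, also of triglyceride synthesis, were higher. Their log2 fold changes were 0.98, 0.45, 0.50 and 0.54 (FDR 7.83e-05, 0.00453, 6.78e-05 and 0.00288). Both Dgat genes, Gpam, Agpat2, Agpat3 and Lpin2 were named after their values were seen. Elovl3 lay between 4081 and 6129 CPM in the controls (median 5043) and between 687 and 2165 CPM at 313 mg/kg-d (median 1877). Elovl3, an elongase of very long chains that is higher in male liver, had a change of -1.65 on the log2 scale (SE 0.26, FDR 3.04e-05).

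Sterol, bile acid and lipoprotein genes were mixed. In cholesterol synthesis and LDL uptake 2 of the 22 measured members rose and 3 fell (1 and 3 with median-ratio scaling), with log2 fold changes of -0.49 for Fdps, -0.49 for Mvk and -0.47 for Tm7sf2, all enzymes of the sterol pathway (FDR 0.00787, 0.00918 and 0.00526). Without animal 3, 8 or 76, or without controls 5 and 6, only 1 member of that list rose. In bile acid synthesis and transport 6 of the 20 measured members rose and 7 fell (6 and 8 with median-ratio scaling). The uptake carrier Slco1a4 went from 10.6 to 1.6 CPM (log2 fold change -1.88, FDR 4.17e-05) and its relative Slco1a1 from 59.9 to 33.9 CPM (log2 fold change -0.96, FDR 0.000484), whereas the export pumps Abcb4, which moves phosphatidylcholine into bile, and Abcc3 went from 17.05 to 42.8 CPM (log2 fold change 1.29, FDR 3.55e-05) and from 35.6 to 77.2 CPM (log2 fold change 1.17, FDR 0.000247). Among apolipoproteins and lipoprotein handling 3 of the 23 measured members rose and 10 fell (2 and 12 with median-ratio scaling). Apoa4 and Apoa5 went from 115 to 60.8 CPM (log2 fold change -0.99, FDR 1.99e-06) and from 1385 to 894 CPM (log2 fold change -0.72, FDR 0.00173), and Mttp, which loads lipid onto nascent lipoproteins, from 488 to 876 CPM (log2 fold change 0.81, FDR 1.44e-06). Apoc2, a cofactor of lipoprotein lipase, went from 132 to 247 CPM (log2 fold change 0.91, FDR 1.04e-09), with 78.3% of its windows in other annotated genes, most in the overlapping Gm44805.

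No measured transcript of the lists around the known protein targets of DCA passed both an FDR under 0.05 and a 2-fold change. Over all genes only 1.43% did so upward and 0.887% downward, so 0 among lists of 14 and 10 measured genes is near those shares. Of the pyruvate dehydrogenase complex, its kinases and carriers 8 of the 14 measured members rose and 0 fell (4 and 0 with median-ratio scaling). Pdk4 lay between 2.26 and 12.8 CPM in the controls (median 3.44) and between 2.89 and 23.99 CPM at 313 mg/kg-d (median 8.89). Pdk4, the kinase that PPAR alpha and fasting raise, did not pass the test (log2 fold change 0.80, FDR 0.182), and 2 of 6 treated animals lay above all controls. The highest control for Pdk4 was animal 5, which stood apart in skeletal muscle genes. It lay at 3.79 on the log2(CPM + 1) scale, with the next control at 2.42. The part of muscle RNA in this overlap was not tested. Pdk3 did not pass either (0.34, FDR 0.186), and Pdk1 and Pdk2 were not analysed here. Among the subunits of the complex, Pdhb went from 44.5 to 62.2 CPM (log2 fold change 0.55, FDR 0.00766), Dlat from 2.85 to 4.78 CPM (log2 fold change 0.51, FDR 0.006), Pdhx from 5.31 to 9.38 CPM (log2 fold change 0.69, FDR 0.000338) and Pdha1 from 163 to 209 CPM (log2 fold change 0.31, FDR 0.028), and Dld gave 0.28 (FDR 0.126). Pdha1 lost its call without animal 3, 6, 8, 75 or 76 (FDR at most 0.0802). The phosphatase Pdp2, which reverses the kinases, and Lias, which makes the lipoyl cofactor, had log2 fold changes of 0.59 (FDR 0.000167) and 0.56 (FDR 0.0102). With median-ratio scaling Pdha1 and Lias had FDRs of 0.263 and 0.0723. Gstz1 lay between 788 and 1027 CPM in the controls (median 943) and between 749.5 and 1055 CPM at 313 mg/kg-d (median 880.0), so the transcript ranges of the enzyme that clears DCA overlapped (-0.07, FDR 0.639). The amount of Gstz1 protein was not measured. Of the Gstz1 pathway of phenylalanine and tyrosine breakdown 2 of the 10 measured members rose and 1 fell (1 and 2 with median-ratio scaling). The share that rose was near that over all genes in both scalings (20.5% and 10.3%). The share that fell rested on 1 or 2 genes, against 6.15% and 10.8% over all genes. The members that rose were Gch1 (0.54) and Pcbd2 (0.36), which serve the biopterin cofactor (FDR 0.0047 and 0.00903). With median-ratio scaling Pcbd2 had an FDR of 0.114, and without controls 5 and 6 only Gch1 of the list passed, with an FDR of 0.055 for Pcbd2.

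Downstream in the mitochondrion, respiratory chain and ATP synthase subunits shifted together by a small amount. Of these 45 of the 69 measured members rose and 1 fell (27 and 1 with median-ratio scaling), with a median log2 fold change of 0.39, and none reached 2-fold. Cox6b1 of complex IV went from 57.4 to 95.5 CPM (log2 fold change 0.81, FDR 8.44e-07), Cyc1 of complex III from 67.4 to 120.1 CPM (log2 fold change 0.79, FDR 0.00515), and Atp5g3 and Atp5k of the ATP synthase from 137 to 222 CPM (log2 fold change 0.74, FDR 3.33e-07) and from 147 to 252 CPM (log2 fold change 0.70, FDR 4.17e-05). In the TCA cycle 7 of the 20 measured members rose and 1 fell (6 and 3 with median-ratio scaling), among them Dlst (0.94, FDR 2.15e-07), a subunit of the 2-oxoglutarate dehydrogenase, Sdhd (0.70, FDR 3.93e-06), Idh1 (0.63, FDR 2.71e-05) and citrate synthase Cs (0.53, FDR 6.49e-05). In glycolysis and gluconeogenesis 10 of the 34 measured members rose and 7 fell (6 and 7 with median-ratio scaling), so which direction holds more members depends on the scaling. Pck1, the entry enzyme of gluconeogenesis, went from 896 to 426 CPM (log2 fold change -1.06, FDR 0.000461), Ldhd, a D-lactate dehydrogenase, from 6.94 to 3.06 CPM (log2 fold change -0.89, FDR 0.0014), Pgam1 from 37.4 to 62.5 CPM (log2 fold change 0.76, FDR 3.04e-05), and Fbp2, the muscle form of fructose bisphosphatase, from 0.299 to 1.71 CPM (log2 fold change 0.90, FDR 0.00213). In glycogen metabolism 5 of the 18 measured members rose and 2 fell (3 and 3 with median-ratio scaling). Ppp1r3b, which targets a phosphatase to glycogen, went from 23.5 to 9.21 CPM (log2 fold change -1.14, FDR 0.000114), and the branching enzyme Gbe1 from 217 to 397 CPM (log2 fold change 1.00, FDR 3.86e-06). The glycogen synthase kinases Gsk3a and Gsk3b gave 0.66 (FDR 0.000815) and 0.41 (FDR 0.000112). Without animal 3, 6 or 75, or without controls 5 and 6, only 1 member of the glycogen list fell.

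A glutathione transferase, of an enzyme class that couples electrophiles to glutathione, had a log2 fold change close to that of Ehhadh. Gsta1 lay between 1.01 and 3.17 CPM in the controls (median 2.55) and between 28.8 and 123 CPM at 313 mg/kg-d (median 67.1). Gsta1 (chromosome 9, 78230656 to 78242684) had a change of 4.25 on the log2 scale (SE 0.29, FDR 6.32e-11), with no overlap. Gsta2 went from 5.62 to 27.4 CPM (log2 fold change 2.33, FDR 3.55e-07) and Gm3776, a gene model beside them, from 1.22 to 32.2 CPM (log2 fold change 3.87, FDR 9.21e-11). Gm3776 and Gsta1 share 92.5% and 90.5% of their 50-base windows with other genes, mostly with each other, and Gsta2 49.8%, so the split between these 3 is uncertain. Gstt2 and Gstm4, of the theta and mu classes, went from 9.97 to 39.6 CPM (log2 fold change 1.88, FDR 5.58e-08) and from 16.97 to 47.02 CPM (log2 fold change 1.38, FDR 2.3e-05). Of the whole list 7 of the 22 measured members rose and 0 fell (7 and 1 with median-ratio scaling). Without animal 8 or 76, 1 member fell.

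Genes under Nrf2, the regulator of the antioxidant response, moved in the same direction, where 16 of the 22 measured members rose and 0 fell (10 and 0 with median-ratio scaling). Ephx1 lay between 171 and 349 CPM in the controls (median 266) and between 431 and 1116 CPM at 313 mg/kg-d (median 799). Ephx1, the microsomal epoxide hydrolase, had a change of 1.58 on the log2 scale (SE 0.18, FDR 5.36e-07). Srxn1, which repairs peroxiredoxins, went from 6.11 to 16.9 CPM (log2 fold change 1.33, FDR 5.28e-06), the quinone reductase Nqo1 from 4.27 to 11.2 CPM (log2 fold change 1.26, FDR 5.39e-06) and Pgd of the pentose phosphate pathway from 6.54 to 14.9 CPM (log2 fold change 1.03, FDR 0.000632). Families of other conjugating and hydrolysing enzymes split in both directions. Of the UDP-glucuronosyltransferases 4 of the 18 measured members rose and 5 fell (3 and 5 with median-ratio scaling). Ugt2b38 lay between 22.8 and 45.00 CPM in the controls (median 34.6) and between 2.99 and 13.6 CPM at 313 mg/kg-d (median 6.62). It had a change of -2.11 on the log2 scale (SE 0.27, FDR 1.74e-06), and 37.4% of its windows recur elsewhere, most often in Ugt2b5. Ugt2b1 went from 93.5 to 39.98 CPM (log2 fold change -1.19, FDR 4.53e-05), Ugt2b35 from 483 to 1114 CPM (log2 fold change 1.19, FDR 1.01e-06) and Ugt1a7c, whose shared exons put 53.7% of its windows in other Ugt1a genes, from 1.48 to 4.77 CPM (log2 fold change 1.20, FDR 0.0059). Of the carboxylesterases, which hydrolyse esters of drugs and lipids, 3 of the 17 measured members rose and 9 fell (3 and 9 with median-ratio scaling). Ces1c and Ces2a went from 5843 to 2226 CPM (log2 fold change -1.31, FDR 6e-08) and from 439 to 149 CPM (log2 fold change -1.46, FDR 1.24e-07) without overlap, whereas Ces2c and the pseudogene Ces2d-ps went from 20.2 to 54.4 CPM (log2 fold change 1.17, FDR 0.00304) and from 25.95 to 93.5 CPM (log2 fold change 1.55, FDR 4.12e-05), with 36.1% and 76.9% of their windows shared. Of the proteasome subunits 9 of the 28 measured members rose and 0 fell (3 and 0 with median-ratio scaling). The share that rose was above that over all genes with the deposited scaling but near it (10.3%) with median-ratio scaling. Psmd8 (0.63, FDR 8.32e-06) and Psma4 (0.53, FDR 0.00248) passed in both scalings, while Psmb5 and Psmb6 had FDRs of 0.00619 and 0.033 with the deposited scaling and of 0.0793 and 0.183 with median-ratio scaling. Psmb6 also lost its call without animal 4, 5, 7, 8, 73, 74 or 75 (FDR at most 0.0863).

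**Figure D3:**
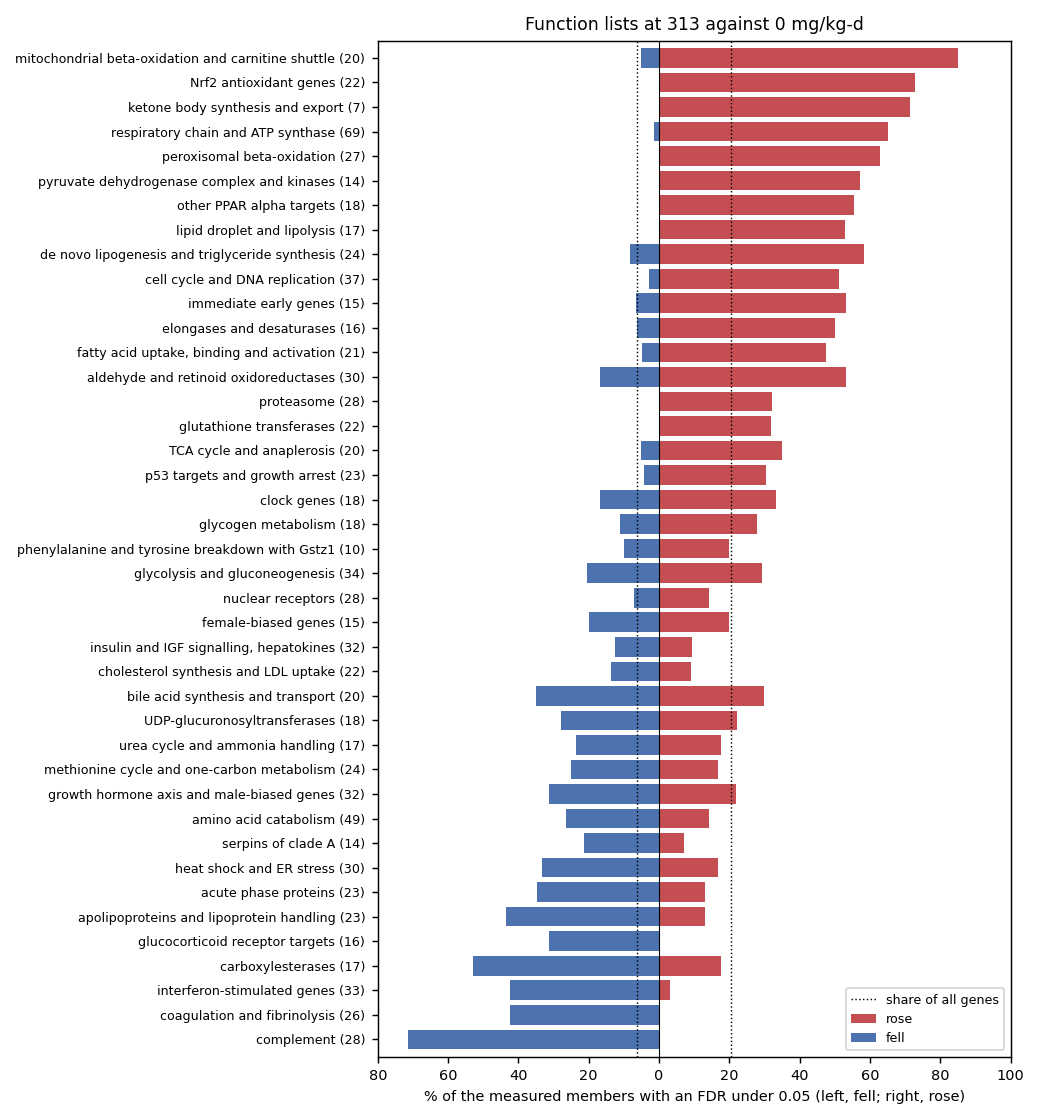
Percent of the measured members of each of the 41 function lists that rose (red, to the right) or fell (blue, to the left) at an FDR under 0.05, with the number of measured members in brackets and the shares over all genes, 20.5% and 6.15%, as dotted lines. Mitochondrial beta-oxidation stands at one end with 17 of 20 members higher, and complement at the other with 20 of 28 lower.

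Transcripts of many plasma proteins made by the liver fell. The largest group was complement, the proteins that mark and lyse microbes. Of the complement list 0 of the 28 measured members rose and 20 fell (0 and 23 with median-ratio scaling), with a median log2 fold change of -0.71, and all 6 treated animals lay below all controls for 15 of its genes. C9 lay between 5141 and 9387 CPM in the controls (median 5847) and between 1735 and 2441 CPM at 313 mg/kg-d (median 2033). C9 (chromosome 15, 6445327 to 6498751), the last component of the lytic pore, had a change of -1.60 on the log2 scale (SE 0.18, FDR 4.29e-07). C8b, another pore component, went from 1689 to 633 CPM (log2 fold change -1.34, FDR 1.21e-08), Cfb from 2394 to 1054 CPM (log2 fold change -1.24, FDR 1.56e-08) and C2 from 206 to 100.1 CPM (log2 fold change -1.16, FDR 4.63e-08). Cfb and C2 lie side by side, and 73.01% and 38.7% of their windows are also in the read-through gene Gm20547. In coagulation and fibrinolysis 0 of the 26 measured members rose and 11 fell (0 and 17 with median-ratio scaling). Factor V, the cofactor of the prothrombinase complex, went from 108 to 42.7 CPM (log2 fold change -1.27, FDR 7.81e-06) (gene F5). The anticoagulant protein C went from 53.9 to 30.01 CPM (log2 fold change -0.87, FDR 1.55e-07) (gene Proc), prothrombin from 579.9 to 342 CPM (log2 fold change -0.79, FDR 3.42e-05) (gene F2) and factor XII from 315 to 178 CPM (log2 fold change -0.78, FDR 7.19e-08) (gene F12). Fully non-overlapping groups were seen for 9 of these genes.

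Transcripts of acute phase proteins, which inflammation raises, varied widely between animals of the same dose. Of the list 3 of the 23 measured members rose and 8 fell (2 and 8 with median-ratio scaling). With any 1 animal left out 8 fell, while the number that rose ranged from 2 to 6. All 6 treated animals lay below all controls for 4 members and above them for 0. Saa2 lay between 74.6 and 6994 CPM in the controls (median 147) and between 427 and 10274 CPM at 313 mg/kg-d (median 1467), and Orm2 lay between 12.6 and 165 CPM in the controls (median 22.7) and between 55.3 and 1096 CPM at 313 mg/kg-d (median 131). Saa2, a serum amyloid, had a change of 2.66 on the log2 scale (SE 0.92, FDR 0.0327), and this call was lost without any one of animals 4, 5, 6, 7, 74, 75 and 78 (FDR at most 0.0975) as well as with median-ratio scaling (FDR 0.0535) and without controls 5 and 6 (FDR 0.131). Orm2, an orosomucoid, had a change of 2.59 on the log2 scale (SE 0.69, FDR 0.00667). One control, animal 8, held the highest control value of both genes, and 2 treated animals lay above it for Saa2 and 3 for Orm2. Saa1 and Lcn2 did not pass the test (1.31, FDR 0.158 and 1.68, FDR 0.126), but both did without animal 8 (1.87, FDR 0.0286 and 2.56, FDR 0.00436). Il1rn, the interleukin 1 receptor antagonist, went from 3.19 to 11.2 CPM (log2 fold change 1.38, FDR 0.00262) and A2m from 10.3 to 3.07 CPM (log2 fold change -1.28, FDR 0.00197). Without animal 8, 6 members rose in place of 3. Over the 23 genes the mean deviation from the control mean was 1.20 log2 units in animal 8 and -0.38 to -0.05 in the other controls, and at 313 mg/kg-d it was 1.10 and 0.72 in animals 74 and 75 and -0.35 to 0.15 in the other 4.

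Among serpins of clade A 1 of the 14 measured members rose and 3 fell (1 and 5 with median-ratio scaling). Serpina7 lay between 13.9 and 31.1 CPM in the controls (median 23.2) and between 94.3 and 400.0 CPM at 313 mg/kg-d (median 172). Serpina7 (chromosome X, 139079257 to 139085236), the thyroxine-binding globulin of plasma, had a change of 2.98 on the log2 scale (SE 0.29, FDR 3.72e-08). Serpina11 went from 19.3 to 6.07 CPM (log2 fold change -1.38, FDR 0.000284), Serpina4-ps1 from 61.9 to 16.8 CPM (log2 fold change -1.57, FDR 0.0297) and Serpina9 from 10.3 to 3.97 CPM (log2 fold change -0.94, FDR 0.0186). Serpina4-ps1 lost its call without animal 3, 4, 6, 73, 74 or 75 (FDR at most 0.0894), and Serpina9 lost it without animal 75 (FDR 0.051). Without animal 75 only 1 member fell, and without animal 78, 5 fell. Without animal 76, 2 members rose.

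Genes of the growth hormone axis and genes that are higher in male liver leaned lower, as 7 of the 32 measured members rose and 10 fell (2 and 13 with median-ratio scaling). Lifr lay between 383 and 729 CPM in the controls (median 555) and between 117 and 297 CPM at 313 mg/kg-d (median 177). Lifr, the receptor for leukemia inhibitory factor, had a change of -1.59 on the log2 scale (SE 0.19, FDR 8.11e-07), and it stood beside C9, Elovl3 and Ugt2b38, which are also on this list. The 7 that rose were all major urinary proteins (Mup1, Mup13, Mup15, Mup16, Mup17, Mup18 and Mup20), pheromone carriers that male liver secretes, and these near-identical genes share reads. Mup17 went from 1.5 to 6.54 CPM (log2 fold change 1.47, FDR 0.0019), with 78.1% of its windows in other genes, while Mup21 went from 27.7 to 13.9 CPM (log2 fold change -1.08, FDR 0.0141). These Mup genes were named after their values were seen, and without controls 5 and 6 Mup21 had an FDR of 0.0826. Without animal 3, 4, 8 or 78, 2, 4, 2 and 2 members of the list rose in place of 7. Of the female-biased genes 3 of the 15 measured members rose and 3 fell (1 and 3 with median-ratio scaling), so the list had no common direction, and without animal 4 or 73 only 1 rose. Sult1e1, the estrogen sulfotransferase, went from 4.41 to 1.23 CPM (log2 fold change -1.51, FDR 0.00158). Rtn4 went from 2.27 to 3.3 CPM (log2 fold change 0.59, FDR 0.0408) and lost its call without animal 4, 6, 8, 73, 76 or 77 (FDR at most 0.107), without controls 5 and 6 (FDR 0.0802) and with median-ratio scaling (FDR 0.092).

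Genes of nitrogen and one-carbon metabolism changed in both directions, more often downward. In each list of this paragraph the share that rose was under that over all genes in both scalings. The share that fell was above that over all genes in both. Of amino acid catabolism 7 of the 49 measured members rose and 13 fell (4 and 18 with median-ratio scaling). Pccb, of propionyl-CoA carboxylase, went from 598 to 333 CPM (log2 fold change -1.05, FDR 5.57e-06), Prodh and Prodh2, which oxidise proline and hydroxyproline, from 116 to 69.1 CPM (log2 fold change -0.72, FDR 7.3e-05) and from 75.7 to 52.9 CPM (log2 fold change -0.62, FDR 0.0276), and Agxt, which detoxifies glyoxylate, from 78.4 to 47.9 CPM (log2 fold change -0.71, FDR 0.000346). Prodh2 lost its call without animal 3, 7, 74 or 75 (FDR at most 0.079) and without controls 5 and 6 (FDR 0.0697). Of the urea cycle and ammonia handling 3 of the 17 measured members rose and 4 fell (1 and 7 with median-ratio scaling), with Otc of the urea cycle at 670.3 to 448 CPM (log2 fold change -0.60, FDR 0.000243), the ammonium carrier Rhbg at 5.37 to 3.0 CPM (log2 fold change -0.69, FDR 0.00165), the arginine carrier Slc7a2 at 525 to 339 CPM (log2 fold change -0.57, FDR 0.00208) and the glutamine carrier Slc38a3 at 27.7 to 43.6 CPM (log2 fold change 0.58, FDR 0.00304). Of the methionine cycle and one-carbon metabolism 4 of the 24 measured members rose and 6 fell (1 and 8 with median-ratio scaling). Dmgdh, which oxidises dimethylglycine, went from 12.9 to 5.41 CPM (log2 fold change -1.12, FDR 1.01e-06), the cysteine dioxygenase Cdo1 from 95.6 to 49.99 CPM (log2 fold change -0.87, FDR 2.99e-05), Ahcy, which breaks down S-adenosylhomocysteine, from 41.03 to 28.8 CPM (log2 fold change -0.48, FDR 0.00723) and the choline dehydrogenase Chdh from 14.3 to 27.5 CPM (log2 fold change 0.86, FDR 7.88e-05). In that list 3 members fell without animal 75 or without controls 5 and 6, and 2 rose without animal 4, 8, 73, 74 or 78.

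Several clock genes changed without any overlap between animals. Of the list 6 of the 18 measured members rose and 3 fell (5 and 4 with median-ratio scaling). All 6 treated animals lay above all controls for 4 members and below them for 2, and 0 members fell by more than 2-fold. Nr1d1 lay between 1.26 and 4.01 CPM in the controls (median 1.95) and between 14.4 and 24.97 CPM at 313 mg/kg-d (median 17.9). Nr1d1, the repressor REV-ERB alpha, had a change of 2.598 on the log2 scale (SE 0.17, FDR 6.32e-11), with a small spread in both groups. Its relative Nr1d2 went from 15.5 to 52.5 CPM (log2 fold change 1.70, FDR 7.68e-08), the output factor Dbp from 9.15 to 42.02 CPM (log2 fold change 1.95, FDR 0.00176) and Per3 from 1.18 to 3.35 CPM (log2 fold change 1.19, FDR 0.00371), and all 6 treated animals lay above all controls for each. These genes cycle over the day, and the hour of death is not in the sample records, so a difference in sampling time between the doses and an effect of DCA cannot be told apart here.

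Targets of the glucocorticoid receptor, which follow circulating corticosterone, were lower where they changed, as 0 of the 16 measured members rose and 5 fell (0 and 6 with median-ratio scaling). Zbtb16 lay between 10.1 and 32.6 CPM in the controls (median 19.6) and between 2.69 and 7.94 CPM at 313 mg/kg-d (median 5.26). Zbtb16, a transcription factor, had a change of -1.78 on the log2 scale (SE 0.23, FDR 2.05e-06). Tsc22d3, the leucine zipper GILZ, went from 648 to 246 CPM (log2 fold change -1.45, FDR 3.42e-05), and Sult1e1 and Pck1, given above, were also members. The fifth was Fkbp5, named after its values were seen, with a log2 fold change of -1.06 (FDR 9.79e-06). Without animal 8, 1 member rose. Corticosterone also cycles over the day, and the part of sampling time was not tested.

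Of the nuclear receptors 4 of the 28 measured members rose and 2 fell (2 and 3 with median-ratio scaling), which is near the shares over all genes in both scalings. The member that changed by more than 2-fold was Ppard, the delta member of the PPAR family. Ppard lay between 42.7 and 80.5 CPM in the controls (median 58.9) and between 12.3 and 20.3 CPM at 313 mg/kg-d (median 18.1), which is a change of -1.69 on the log2 scale (SE 0.21, FDR 1.65e-06), and the groups did not overlap. The bile acid receptor Nr1h4 went from 251 to 389 CPM (log2 fold change 0.55, FDR 2.41e-05), its target Nr0b2 from 3.83 to 2.0 CPM (log2 fold change -0.87, FDR 0.00955) and Rarb from 1.12 to 2.27 CPM (log2 fold change 0.64, FDR 0.00567). Ppara, the receptor itself, was named after its values were seen and gave 0.02 (FDR 0.939), with medians of 337 and 315 CPM, and its sign turned with median-ratio scaling (-0.12). Of insulin and IGF signalling genes and hepatokines 3 of the 32 measured members rose and 4 fell (2 and 10 with median-ratio scaling). The activin antagonist Fst went from 2.87 to 9.79 CPM (log2 fold change 1.48, FDR 0.000212), the activin subunit Inhbc from 135 to 58.8 CPM (log2 fold change -1.16, FDR 1.52e-05), Angptl6 from 9.36 to 4.79 CPM (log2 fold change -0.81, FDR 0.000437) and Foxo1, a factor that insulin restrains, from 52.3 to 33.7 CPM (log2 fold change -0.59, FDR 0.000931).

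Cell cycle and DNA replication genes that changed were mostly higher, as 19 of the 37 measured members rose and 1 fell (12 and 2 with median-ratio scaling). Ccnd1 lay between 1.11 and 4.69 CPM in the controls (median 2.92) and between 6.75 and 19.4 CPM at 313 mg/kg-d (median 12.1). Ccnd1, the cyclin of G1, had a change of 1.77 on the log2 scale (SE 0.24, FDR 4.27e-06), and the mitotic genes Cdc20 and Ccnb1 went from 5.18 to 17.9 CPM (log2 fold change 1.63, FDR 0.00416) and from 9.06 to 27.7 CPM (log2 fold change 1.49, FDR 0.0143), with 5 of 6 treated animals above all controls. Ccnb1 lost its call without controls 5 and 6 (FDR 0.0621). Tk1, the thymidine kinase of the salvage pathway, was the member that fell. Tk1 lay between 15.5 and 50.8 CPM in the controls (median 30.2) and between 2.17 and 13.6 CPM at 313 mg/kg-d (median 5.23), with a change of -2.17 on the log2 scale (SE 0.28, FDR 1.99e-06). The mean deviation of the 37 genes lay between -0.27 and 0.24 log2 units in the controls and between 0.18 (animal 74) and 0.93 (animal 76) at 313 mg/kg-d. Of the p53 targets and growth arrest genes 7 of the 23 measured members rose and 1 fell (6 and 2 with median-ratio scaling), with Gadd45a (0.86), Aen (0.85), Fas (0.84) and Ccng1 (0.70) leading by log2 fold change (FDR 0.00189, 2.49e-07, 6.09e-05 and 0.00022).

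Stress response genes divided by kind. Of the immediate early genes, which are switched on within minutes of a stimulus, 8 of the 15 measured members rose and 1 fell (8 and 1 with median-ratio scaling). The AP-1 subunits Jun and Junb went from 9.07 to 33.2 CPM (log2 fold change 1.58, FDR 1.64e-05) and from 5.64 to 11.5 CPM (log2 fold change 1.03, FDR 0.00164), and Atf3 from 1.06 to 3.84 CPM (log2 fold change 1.34, FDR 3.22e-05). Egr1 went from 0.955 to 3.97 CPM (log2 fold change 1.34, FDR 0.0172) and lost its call without animal 74 (FDR 0.0571) and without controls 5 and 6 (FDR 0.0938), and without that animal 5 members rose in place of 8. Of the heat shock and ER stress genes 5 of the 30 measured members rose and 10 fell (2 and 12 with median-ratio scaling). Hspa1a lay between 5.14 and 17.03 CPM in the controls (median 9.47) and between 0.531 and 3.55 CPM at 313 mg/kg-d (median 1.2). Hspa1a, the inducible heat shock protein 70, had a change of -2.15 on the log2 scale (SE 0.31, FDR 1.22e-05) and shares 60.3% of its windows, most with Hspa1b. Herpud1 and Sdf2l1, which act in the ER on unfolded proteins, went from 450.3 to 192 CPM (log2 fold change -1.34, FDR 3.72e-05) and from 261 to 92.1 CPM (log2 fold change -1.36, FDR 0.000816). Asns, the asparagine synthetase, went from 1.03 to 3.71 CPM (log2 fold change 0.88, FDR 0.0204) and lost its call without animal 73 or 74 (FDR at most 0.0631) and without controls 5 and 6 (FDR 0.107). On this list 3, 3, 2 and 3 members rose without animal 7, 73, 74 or 75, and 2 without controls 5 and 6, in place of 5.

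Interferon-stimulated genes that changed were lower with 1 exception, as 1 of the 33 measured members rose and 14 fell (0 and 17 with median-ratio scaling). Rsad2, an antiviral enzyme, went from 13.9 to 6.0 CPM (log2 fold change -1.10, FDR 0.000105), Ifit1 from 16.9 to 7.98 CPM (log2 fold change -1.01, FDR 0.000111), Isg15, a ubiquitin-like protein, from 74.8 to 45.8 CPM (log2 fold change -0.89, FDR 0.000868) and the exonuclease Isg20 from 3.64 to 1.57 CPM (log2 fold change -0.88, FDR 0.000347). The mean deviation of the 33 genes was -0.85 and -0.55 log2 units in animals 74 and 76 and -0.26 to -0.10 in the other 4 treated animals, against -0.13 to 0.25 in the controls. Without animal 74 or 76, 8 and 9 members fell in place of 14.

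Of the 261 DEGs, 116 were on a function list and 145 on none, and several of the largest changes belong to the latter. Pctp lay between 4.65 and 14.05 CPM in the controls (median 13.7) and between 28.7 and 122 CPM at 313 mg/kg-d (median 96.3). Pctp, the phosphatidylcholine transfer protein, had a change of 2.74 on the log2 scale (SE 0.28, FDR 6e-08). Serinc2, of a family of membrane proteins that carry serine into lipids, went from 9.32 to 65.6 CPM (log2 fold change 2.64, FDR 8.71e-08) and Slc16a5, a monocarboxylate transporter, from 9.4 to 54.2 CPM (log2 fold change 2.35, FDR 1.54e-06). Raet1b and Raet1d, ligands of the NKG2D receptor of natural killer cells, went from 8.99 to 63.3 CPM (log2 fold change 2.61, FDR 1.75e-05) and from 2.9 to 20.4 CPM (log2 fold change 2.39, FDR 1.83e-05). Raet1d shares 55.8% of its windows with its relatives, most with Raet1e, so the split within this family is uncertain. Among decreases, Lrtm1 lay between 6.42 and 12.6 CPM in the controls (median 11.2) and between 0.122 and 1.93 CPM at 313 mg/kg-d (median 0.428). Lrtm1 (chromosome 14, 29018208 to 29033645), a leucine-rich repeat membrane protein, had a change of -2.84 on the log2 scale (SE 0.21, FDR 2.54e-10). Omd, a small proteoglycan of the matrix, went from 23.1 to 5.42 CPM (log2 fold change -1.84, FDR 3.66e-07), the acetyltransferase relative Nat8f7 from 4.11 to 0.888 CPM (log2 fold change -1.72, FDR 2.81e-05), the desmoglein Dsg1c from 9.31 to 1.85 CPM (log2 fold change -1.56, FDR 0.000382) and Slc22a28, a relative of the organic anion transporters, from 74.02 to 26.98 CPM (log2 fold change -1.51, FDR 4.61e-05). Nat8f7 and Slc22a28 share 82.3% and 53.9% of their windows with related genes.

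Markers of the liver's cell types were compared in the same way. Hepatocyte markers were present in every sample and their summed level was 35536 to 44662 CPM in the controls and 30026 to 38089.5 CPM at 313 mg/kg-d, where 0 of 11 rose and 2 fell (0 and 7 with median-ratio scaling). None of the 10 Kupffer cell markers passed the test in either scaling, with sums of 244 to 325 CPM in the controls and 173 to 351 CPM at 313 mg/kg-d. For sinusoidal endothelium 0 of 12 rose and 2 fell (0 and 5 with median-ratio scaling), with sums of 586 to 688 CPM in the controls and 537 to 644 CPM at 313 mg/kg-d, and for stellate cells and fibroblasts 1 of 11 rose and 1 fell (1 and 3 with median-ratio scaling), with sums of 450.2 to 861 CPM in the controls and 370.5 to 528 CPM at 313 mg/kg-d. Markers of cholangiocytes (4 measured), lymphocytes (8), adipocytes (1) and exocrine pancreas (5) had no call in either direction by limma in either scaling, and the pancreatic sums did not exceed 12.9 CPM. Erythroid markers summed to 61.7 to 131 CPM in the controls and 32.02 to 58.3 CPM at 313 mg/kg-d, without overlap, and Hba-a1, Hba-a2 and Alas2 fell by 1.09, 1.08 and 0.83 on the log2 scale (FDR 0.000312, 0.000338 and 0.00899), while 0 of the 7 rose and 3 fell in both scalings. Neutrophil and monocyte markers summed to 12.9 to 17.97 CPM in the controls and 12.1 to 35.9 CPM at 313 mg/kg-d, and of the 4 measured S100a8 and Retnlg rose, by 0.88 and 0.73 (FDR 0.0115 and 0.0102), although the median of both stayed under 1 CPM. The counts for this list were the same with median-ratio scaling (2 rose and 0 fell). Their mean deviation was highest in animals 74 and 75 (1.498 and 0.88 log2 units), the same 2 treated animals in which the acute phase genes were highest. The part of blood or infiltrating cells in the other lists was not tested.

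The size of the change differed among the 6 treated animals. Over the 161 increased DEGs the mean deviation from the control mean was 1.90 log2 units in animal 73, 1.86 in 75, 1.78 in 74, 1.69 in 76, 1.44 in 77 and 1.23 in 78. Over the 100 decreased DEGs it ran from -1.69 in animal 74 to -0.96 in animal 78. Animal 78 was the lowest of the 6 for 89 of the increased DEGs and the highest for 46 of the decreased ones. These values use the DEGs of the same comparison and are a description only. Animal 78 also differed by function. Its peroxisomal beta-oxidation genes deviated by 0.48 against 0.96 to 1.24 in the other 5, whereas its cell cycle genes (0.77) and clock genes (0.47) were within the range of the others. The intake of each animal is not in the sample records, which give the same dose for all 6.

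**Figure D4:**
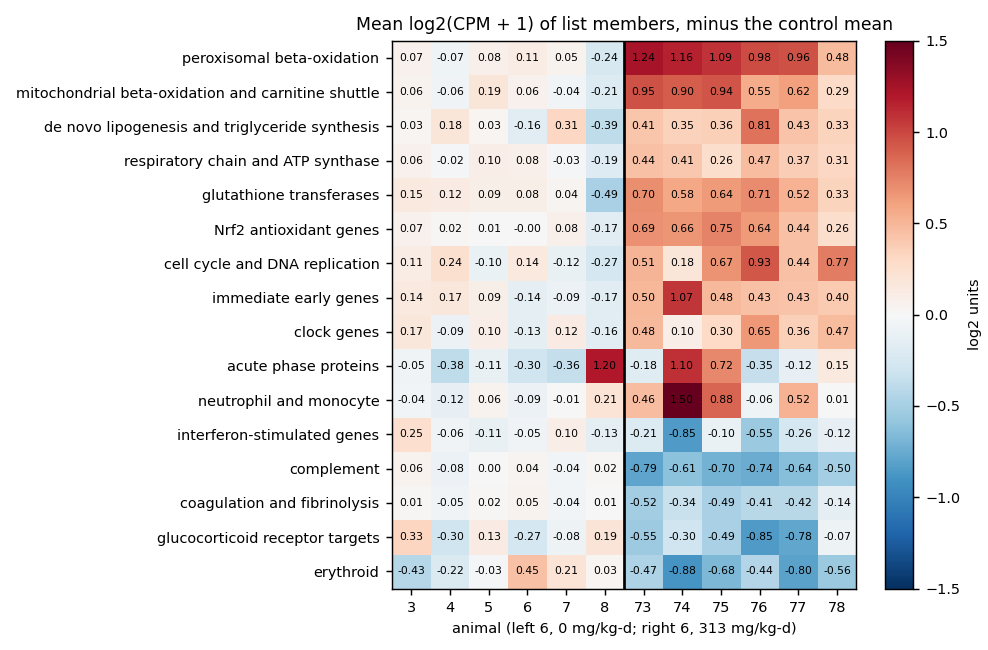
Mean over all measured members of 16 lists (rows) of log2(CPM + 1) minus the control mean in each of the 12 animals (columns), with the value in each cell and colour from -1.5 (blue) to 1.5 (red). Animal 78 is the palest of the treated animals for both beta-oxidation lists, and animals 8, 74 and 75 are red for acute phase proteins.

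The lower and higher doses place the middle dose. Against 198 mg/kg-d, 115 genes were higher (1.02%) and 39 lower (0.346%) at an FDR under 0.05 and more than 2-fold. The 5 largest increases by log2 fold change were Cyp4a14 (7.18, FDR 6.46e-14), Cyp4a10 (5.79, FDR 4.63e-10), Acot3 (4.25, FDR 5.45e-07), Ehhadh (4.08, FDR 1.76e-09) and Cyp4a31 (3.55, FDR 3.57e-07). The 5 largest decreases were Serpina4-ps1 (-2.23, FDR 0.00651), Ugt2b38 (-1.87, FDR 3.19e-05), Ccnf (-1.73, FDR 0.0204), Lrtm1 (-1.73, FDR 3.29e-06) and Adgrf1 (-1.55, FDR 0.000364). Of the 161 genes increased against the controls, 98 were also higher than at 198 mg/kg-d, and of the 100 decreased, 32 were also lower. This comparison and that with the controls share the 6 samples of 313 mg/kg-d. Lpin1 was already lower at the lower dose. Its median was 76.3 CPM at 198 mg/kg-d, with 56.9 CPM at 313 and 65.1 CPM at 427 mg/kg-d, and its change from 198 to 313 mg/kg-d was -0.35 (FDR 0.264).

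Fewer genes differed from the highest dose. At 427 mg/kg-d, 30 genes were higher than at 313 mg/kg-d (0.266%) and 26 lower (0.231%). The increases with the largest log2 fold change, 427 minus 313, were Acot3 (3.77, FDR 1.16e-05), Cyp2b9 (2.62, FDR 0.000276), Cyp2a4 (2.23, FDR 7.53e-06), Krt23 (2.21, FDR 4.35e-09) and Cyp2a22 (2.18, FDR 7.53e-06). The largest decreases were Saa2 (-4.34, FDR 0.00872), Saa1 (-3.92, FDR 0.00113), Lcn2 (-3.52, FDR 0.0145), Orm2 (-3.05, FDR 0.0145) and Serpina1e (-2.02, FDR 0.000136). Saa2, Saa1, Lcn2 and Orm2 among them are acute phase genes with a wide spread at 313 mg/kg-d. Saa2 lay between 30.9 and 495 CPM at 427 mg/kg-d (median 74.5), below its control median of 147. Pdk4, which did not pass the test at 313 mg/kg-d, was 2.18 log2 units higher at 427 than at 313 mg/kg-d (FDR 0.006). C9 had a median of 907 CPM at 427 mg/kg-d, -1.33 log2 units from the middle dose (FDR 0.000105), and Ehhadh 107 CPM (0.50, FDR 0.424).

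**Figure D5:**
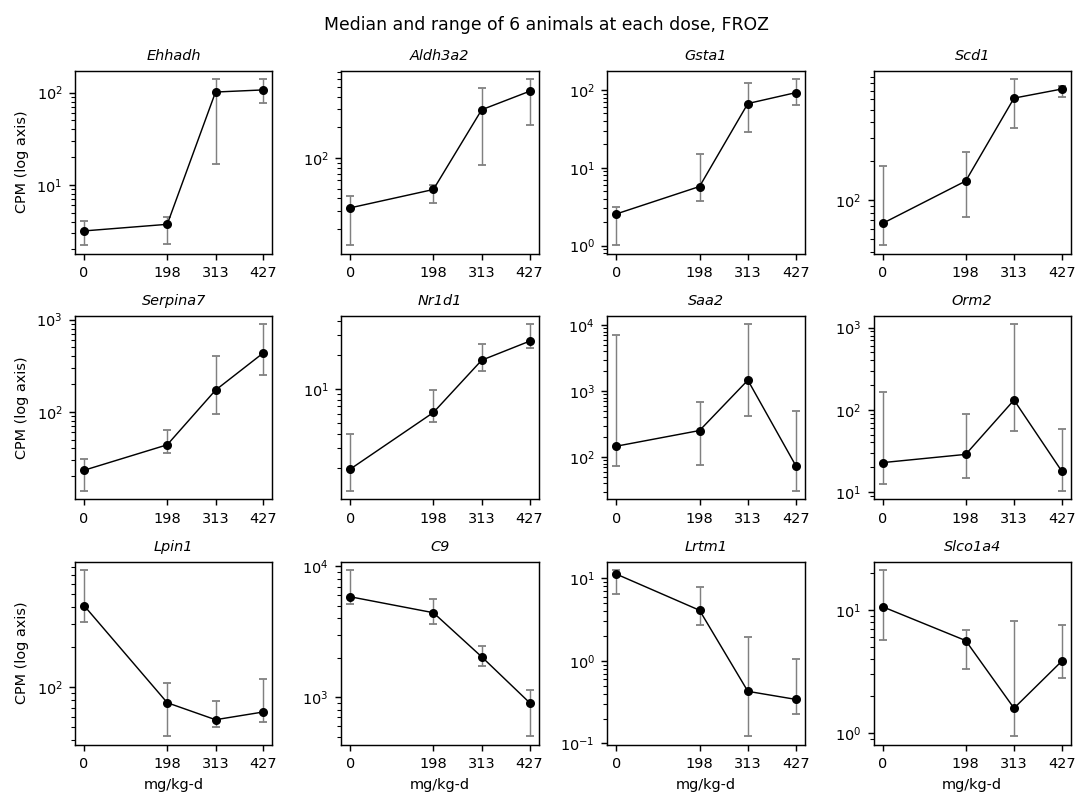
Median CPM (points, log axis) and range of the 6 animals (bars) in the control and the 3 dose groups (198, 313 and then 427 mg/kg-d) for 12 genes. Ehhadh, Aldh3a2, Gsta1 and Scd1 rise mostly between 198 and 313 mg/kg-d, Lpin1 is low from 198 mg/kg-d on, and Saa2 and Orm2 have their highest medians at 313 mg/kg-d.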

How the data were processed

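RNA isolated from frozen liver was measured by TempO-Seq, with abundant transcripts attenuated alike in every sample. Alignment by the authors used STAR 2.6 and mm10, followed by counting in Partek against RefSeq transcripts, removal of genes of low level and scaling to CPM, which sums to 1000000 in each library. The authors deposited log2(CPM + 1) values. The filter removed genes before scaling, so CPM is relative to the genes kept. The fits used limma 3.58.1 in R 4.3.3 on the deposited log2 values of the 24 FROZ libraries with dose as a factor of 4 levels, a variance prior that follows the mean, and Benjamini-Hochberg FDR over 11275 genes. It was tested on simulated data. The study fitted a model chosen per gene, which was not used here. Library depth was recovered from the CPM steps of low values, where 96.4 to 97.5% in the 24 libraries came out as whole reads (within 0.1 of a whole number). These reads entered 1 alternative fit with voom weights. Exact permutation tests, summaries and drawings were made in Python 3.11.15 with numpy 2.4.6, scipy 1.17.1 and pandas 2.3.3. PCR reads are not independent molecules.

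Named genes were, apart from Acot and Cyp symbols, the 15 largest increases and the 15 largest decreases among DEGs whose groups do not overlap, up to 4 members of each function list by size of change at an FDR under 0.05, the 4 markers, the pyruvate dehydrogenase kinases and subunits with Gstz1, and the 5 largest changes in each direction between neighbouring doses. The members and the lists were chosen with earlier results of these data known. Positions are from GENCODE on GRCm38 (mm10), 1-based. Shared 50-base windows are stretches of a gene's annotated transcripts that also occur in another gene; the probes' own positions were not used here. Formalin-fixed samples were not used here. Genes whose names had been turned into dates (18) or listed more than once (2 names) were tested but not named, and a few further genes are not reported here.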

Additional observations from a re-analysis of the deposited data

Results flagged for a closer look

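In 35 of 378 sets of 6 animals (each named gene and 4 library measures, at each of the 2 doses) 1 animal lay far from the other 5 of its dose, by a gap that exceeds Dixon's 95% critical share of the whole range. Chance alone gives about 1 in 20 sets, and genes of 1 function are not independent. The values that follow are log2(CPM + 1).

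Control animal 8 was involved most often. It was the lowest control for Gsta1 (1.005), Gm3776 (0.5684), Pctp (2.499), Lrtm1 (2.892), Fabp1 (11.59), Retsat (6.585), Elovl5 (6.085), Abcc3 (4.045) and Atp5g3 (6.822), and the highest for C9 (13.2), Saa2 (12.77) and Lcn2 (11.18). The nearest control for Lcn2 was at 6.291. Leaving animal 8 out took the DEGs from 261 to 263. Genes at an FDR under 0.05 went from 3010 to 2716, with 2010 higher in place of 2317 and 706 lower in place of 693. Of the 82 list counts 10 moved without it.

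Control animal 5 was the highest control for Fitm1 (2.056), Cd36 (4.357), Ccng1 (7.153) and Pdk4 (3.792). Animal 7 was the highest for Nat8f7 (3.932), Tm7sf2 (5.981) and Ces2c (5.149), animal 4 the lowest for Serinc2 (2.531) and animal 6 the lowest for Ccnf (1.991).

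At 313 mg/kg-d, animal 78 was the lowest for Ehhadh (4.154), Acaa1b (2.373), Acaa1a (9.524), Elovl3 (9.427), Mgll (4.771), Fbp2 (0.334) and Ces2d-ps (4.879), and the highest for A2m (3.546). For Ehhadh, Acaa1a, Acaa1b, Mgll, Fbp2, Ces2d-ps and A2m it was the treated animal nearest to the controls, and for Elovl3 the one farthest from them. Animal 76 was the highest for Elovl6 (7.41) and the lowest for Cfb (9.813), animal 75 the lowest for Pdhx (2.864) and Slc38a3 (5.133), and animal 74 the lowest for Pccb (7.678) and the highest for Cyc1 (7.351).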

How the results depend on the processing

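No paired analysis was possible because the 2 dose groups share no animal number. DEGs numbered 467 (297 higher, 170 lower) with an offset of 0.1 CPM and 479 (317 higher, 162 lower) with voom weights on recovered reads, against 261 (161 and 100) as reported. With median-ratio scaling 1158 genes were higher and 1223 lower at an FDR under 0.05, and 518 genes were above and 553 below all controls in all 6 animals. Leaving out 1 animal at a time gave 242 to 287 DEGs (152 to 184 higher and 77 to 113 lower) and 2566 to 2964 genes at an FDR under 0.05 (1996 to 2331 higher and 547 to 707 lower). It gave 47 to 65 DEGs between 427 and 313 mg/kg-d and 135 to 182 between 313 and 198 mg/kg-d. The fall in reads per library ranged from -1.59 to -1.04 M and missed a p of 0.05 without animal 5, 6, 7, 74, 75, 76 or 78. Leaving out controls 5 and 6 together was chosen after seeing the data and gave 266 DEGs.

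Of the 185 named genes, array quality weights and an offset of 0.1 CPM changed no call, and median-ratio scaling changed 9. Saa2, Rtn4, Lias, Pcbd2, Psmb5, Psmb6, Pdha1 and Tnnc2 lost their call and Ccnf gained one (log2 fold change -1.35, FDR 0.049), as it did without animal 6, 76, 77 or 78. With only the 12 libraries of 0 and 313 mg/kg-d, Saa2 (FDR 0.0593), Acta1, Mylpf and Tnnc2 lost their call and Dld gained one (FDR 0.047), and with voom weights Egr1 (FDR 0.059), Acta1, Mylpf and Tnnc2 lost theirs. Only genes far from the threshold changed sign. Ppara gave -0.12 with median-ratio scaling and -0.11 to 0.11 with 1 animal left out (below 0 without animal 4, 73 or 76), and Serpina1e gave 0.039 without controls 5 and 6, with no call in any of these. Several list counts of 0 to 2 members also moved by more than 1.5 times when 1 animal was left out. Genes near 1 read per library (0.102 to 0.1495 CPM) are limited by depth. The cause of these changes was not tested.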
